A study of Mus musculus with 12 samples.

Results

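Genes that mark horizontal cells of the mouse retina were followed in whole retinal explants kept at 5 or 25 mM glucose. The 8 genes were Lhx1, Onecut1, Onecut2, Onecut3, Calb1, Prox1, Gja10 and Sept4. They were taken by symbol from a table of 53707 genes, without a threshold on any value, and 7 of the 8 were among the 21061 genes with enough counts to be tested. The retinas came from C57BL/6J mice at postnatal day 28, with no transgene or deletion named, and were cultured for 48 h in Neurobasal-A medium. The comparison was 25 mM against 5 mM glucose, with 3 biological replicates in each of the 2 groups. Each biological replicate had 2 technical replicates, 1 in each of 2 batches, which makes 12 libraries of total RNA. The whole cultured retina was sequenced, so every value is an average over all its cell types, and fewer cells of a type cannot be told apart from less RNA per cell.

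Horizontal cells are inhibitory interneurons of the outer retina. Their dendrites and axon terminals contact cones and rods at the photoreceptor synapse, where they read glutamate release and feed back onto it, and gap junctions join them into a sheet that averages light over a wide area. They are rare among retinal cells, and in mouse retina they are recognised by the LIM-homeodomain factor Lhx1, the Onecut factors, the homeodomain factor Prox1 and the calcium-binding protein calbindin. Few of these genes are exclusive to horizontal cells, since Prox1 is also made by amacrine and bipolar cells and Müller glia, Calb1 by amacrine and ganglion cells, and Onecut genes by ganglion cells.

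None of the 7 tested genes changed with glucose at a false discovery rate (FDR) under 0.05 in edgeR's quasi-likelihood test, where 1.98% of all tested genes did (1.47% higher and 0.513% lower at 25 mM). The stricter rule of FDR under 0.01 and a fold change over 2 was met by 0% of all genes. DESeq2, which called 16.6% of all genes, and limma-voom, which called 1.98%, also called 0 of the 7. With replicate 1 at 5 mM left out, Onecut2 and Calb1 were called higher and Sept4 lower, in a fit that called 11.7% of all genes higher and 14.9% lower. At an unadjusted p under 0.05, 1 of the 7 passed, beside 28.7% of all genes. That gene was Onecut3, which was also the only one of the 8 whose 2 groups did not overlap, beside 31.8% of all genes (16.0% higher and 15.8% lower). The log2 fold change was below 0 for 4 of the 7, beside 50.7% of all genes (3 of the 7 when library totals replaced the scaling factors), and its median was −0.028, beside −0.01 for all genes. Depth ranged from 43002302 to 60098862 summed counts at 5 mM and from 37944826 to 42451809 at 25 mM.

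The start regions of 3 of these genes are shown because their main transcripts begin there: Lhx1 and Onecut1 as factors measured at very low level, and Sept4 because its counts were split between 2 starts. Of the 8 genes, windows of Prox1, Gja10, Onecut1, Lhx1 and Sept4 were read from the RefSeq promoter table (GRCm38.p6), each holding 300 bases. Onecut2 was left out of this reading, and no window was matched for Calb1 or Onecut3. Capitals mark a GC box, GGGCGG read on either strand, which 35.7% of the 32851 windows in the table hold. The windows of these 5 genes were also searched on both strands for the Onecut core ATTGAT or ATCGAT, held by 8.4% of all windows, and none of them contained these letters, so the 2 motifs did not overlap. The Lhx1 window, chr11:84525485-84525784 on the minus strand, holds the start of Lhx1-201, which took 91.6% of the Lhx1 transcript counts, and has 0 GC boxes.
Lhx1: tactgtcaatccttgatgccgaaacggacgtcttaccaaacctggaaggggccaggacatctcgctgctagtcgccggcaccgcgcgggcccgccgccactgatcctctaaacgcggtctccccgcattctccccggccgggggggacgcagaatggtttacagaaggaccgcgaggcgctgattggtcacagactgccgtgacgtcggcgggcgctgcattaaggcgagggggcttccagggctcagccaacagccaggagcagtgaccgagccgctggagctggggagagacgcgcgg
The Onecut1 window, chr9:74861671-74861970 on the plus strand, holds the start of Onecut1-201, with 93.3% of the Onecut1 transcript counts. It has 3 GC boxes and is 73.0% G or C.
Onecut1: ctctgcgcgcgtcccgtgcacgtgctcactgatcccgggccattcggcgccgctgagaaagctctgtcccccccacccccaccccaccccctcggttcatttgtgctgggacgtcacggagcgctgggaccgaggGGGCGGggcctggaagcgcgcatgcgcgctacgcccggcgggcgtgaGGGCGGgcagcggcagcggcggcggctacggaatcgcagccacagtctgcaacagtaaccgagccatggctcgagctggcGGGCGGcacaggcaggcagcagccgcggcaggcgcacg
The upstream Sept4 window, chr11:87578170-87578469 on the plus strand, has 2 GC boxes and holds the starts of transcripts with 40.7% of the Sept4 counts. That share leaves out Sept4-212, with 23.6% of the counts, which starts at 87578470, just past the end of the window. The upstream region thus carried more of the counts than the window shows.
Sept4 upstream: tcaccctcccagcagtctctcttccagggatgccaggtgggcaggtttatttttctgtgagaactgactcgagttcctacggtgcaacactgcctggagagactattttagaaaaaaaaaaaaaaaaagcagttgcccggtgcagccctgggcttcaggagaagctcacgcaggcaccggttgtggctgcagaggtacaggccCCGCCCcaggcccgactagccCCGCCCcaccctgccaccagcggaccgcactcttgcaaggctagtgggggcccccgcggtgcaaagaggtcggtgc
The downstream Sept4 window, chr11:87580811-87581110 on the same strand, has 1 GC box and holds the starts of transcripts with 22.4% of the counts.
Sept4 downstream: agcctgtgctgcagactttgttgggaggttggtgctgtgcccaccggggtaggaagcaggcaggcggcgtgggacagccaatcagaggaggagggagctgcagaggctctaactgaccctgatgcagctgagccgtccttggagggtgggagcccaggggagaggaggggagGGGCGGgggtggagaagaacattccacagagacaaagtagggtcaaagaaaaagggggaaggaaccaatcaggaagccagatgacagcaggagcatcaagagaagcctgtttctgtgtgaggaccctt

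Lhx1 (ENSMUSG00000018698, chr11:84518284-84525535 of GRCm38, minus strand) sets the layer in which horizontal cells settle. Its CPM, the share of the library's counts scaled to a fixed total, in replicates 1 to 3 were 0.506, 1.13 and 0.894 at 5 mM and 0.209, 0.520 and 0.995 at 25 mM. Replicate 1 at 25 mM lay below all 5 mM values, and replicates 2 and 3 lay among them, so the groups overlapped. Its log2 fold change was −0.54 (SE 0.56, 95% interval −1.82 to 0.74, FDR 0.535, edgeR), and it ranged from −1.22 without replicate 3 at 25 mM to −0.13 without replicate 1 at 25 mM. The lowest replicate rested on 9 counts, whose exact Poisson 95% interval, for counting error only, runs from 4.12 to 17.1. Such counting error, beside the spread between replicates, limits what could be detected.

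Onecut1 (ENSMUSG00000043013, chr9:74861921-74891781, plus strand), Onecut2 (ENSMUSG00000045991, chr18:64340020-64400987, plus strand) and Onecut3 (ENSMUSG00000045518, chr10:80494835-80517276, plus strand) encode DNA-binding factors with a cut domain and a homeodomain, a family known from horizontal and ganglion cells. Onecut1 stood at 0.632, 0.837 and 1.00 CPM at 5 mM and 0.811, 0.876 and 0.430 CPM at 25 mM. These values overlapped, and the log2 fold change was −0.22 (SE 0.38, 95% interval −1.10 to 0.65, FDR 0.718, edgeR). Onecut1 shares exons on the same strand with Gm20649, and reads from the shared part cannot be assigned to either with certainty.

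Onecut2 was the most abundant of the Onecut genes. It gave 15.5, 5.45 and 7.91 CPM at 5 mM and 20.4, 19.2 and 11.7 CPM at 25 mM. Replicate 1 at 5 mM exceeded replicate 3 at 25 mM, and the remaining 5 mM values lay below all 25 mM values. The log2 fold change was 0.83 (SE 0.40, 95% interval −0.098 to 1.76, FDR 0.212, edgeR).

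Onecut3 gave 1.03, 1.27 and 1.32 CPM at 5 mM and 3.04, 2.82 and 1.40 CPM at 25 mM. All 25 mM values lay above all 5 mM values, though replicate 3 at 25 mM was close to them. Its log2 fold change was 1.00 (SE 0.35, 95% interval 0.19 to 1.82; 1.57 with offsets for GC content and length, FDR 0.0523), with an FDR of 0.117 in edgeR and p = 0.1 in a two-sided exact permutation test, the smallest that 3 against 3 can give. The gene 2610034O05Rik lies inside Onecut3.

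Prox1 (ENSMUSG00000010175, chr1:190118035-190170714, minus strand), which drives precursors out of the cell cycle and towards horizontal cell fate, took 66.3 to 71.4% of the summed CPM of the 8 genes in every replicate. It gave 179, 145 and 137 CPM at 5 mM and 172, 147 and 133 CPM at 25 mM. Within each group replicate 1 was highest and replicate 3 lowest, and the groups overlapped throughout. The log2 fold change was −0.028 (SE 0.18, 95% interval −0.44 to 0.38, FDR 0.930, edgeR). Part of its exon sequence lies opposite Prox1os, and since the counting is not stated to use strand, reads there cannot be assigned to either with certainty.

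Calb1 (ENSMUSG00000028222, chr4:15881264-15908064, plus strand) encodes calbindin, a calcium buffer that fills the horizontal cell body and is the usual stain for it. It gave 27.6, 7.38 and 9.17 CPM at 5 mM and 19.4, 22.5 and 14.8 CPM at 25 mM. Replicate 1 at 5 mM was the highest of all 6 and the other 2 at 5 mM the lowest. Its log2 fold change was 0.36 (SE 0.48, 95% interval −0.73 to 1.45, FDR 0.634, edgeR).

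Gja10 (ENSMUSG00000051056, chr4:32596960-32602760, minus strand), which encodes the main connexin of mouse horizontal cell gap junctions, was near the limit of detection and was not tested. It had 13, 3 and 7 counts at 5 mM and 14, 8 and 11 at 25 mM, or 0.235, 0.0679 and 0.149 CPM against 0.325, 0.219 and 0.249 CPM. The groups overlapped, and the lowest value, 3 counts, has an exact Poisson 95% interval of 0.619 to 8.77. With the filter on low counts removed, its log2 fold change was 0.77 (SE 0.62, FDR 0.518, edgeR).

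Sept4 (ENSMUSG00000020486, chr11:87568903-87590539, plus strand) encodes a septin, a GTP-binding protein that assembles into filaments under the cell membrane. It gave 32.3, 41.9 and 48.7 CPM at 5 mM and 33.4, 28.7 and 31.0 CPM at 25 mM. Replicate 1 at 5 mM lay within the 25 mM range and the other 2 above it. Its log2 fold change was −0.40 (SE 0.20, 95% interval −0.86 to 0.056, FDR 0.220, edgeR), and −0.083 (FDR 0.711) with offsets for GC content and length. Sept4 shares exons on the same strand with Gm11492.

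**Figure D1:**
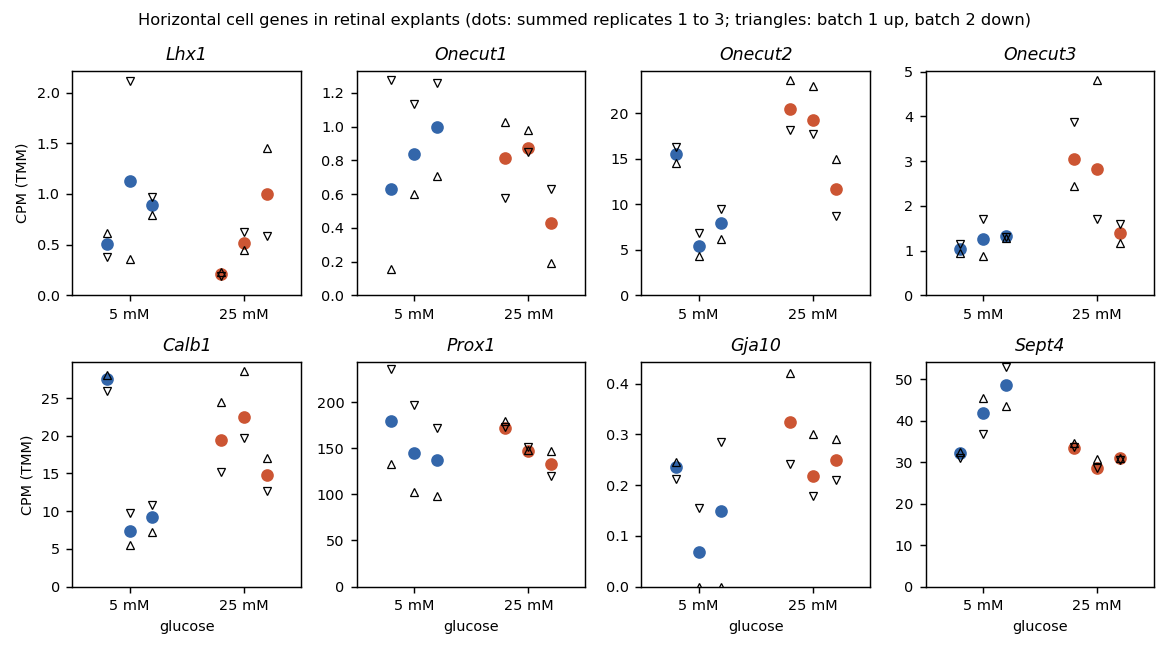
CPM of the 8 genes at 5 and 25 mM glucose, on a separate axis for each gene, with dots for biological replicates 1 to 3 (technical replicates summed) and triangles for their libraries, pointing up for batch 1 and down for batch 2. Onecut3 is the only gene whose dots do not overlap between the groups, with 1.03 to 1.32 CPM at 5 mM and 1.40 to 3.04 CPM at 25 mM.

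**Figure D2:**
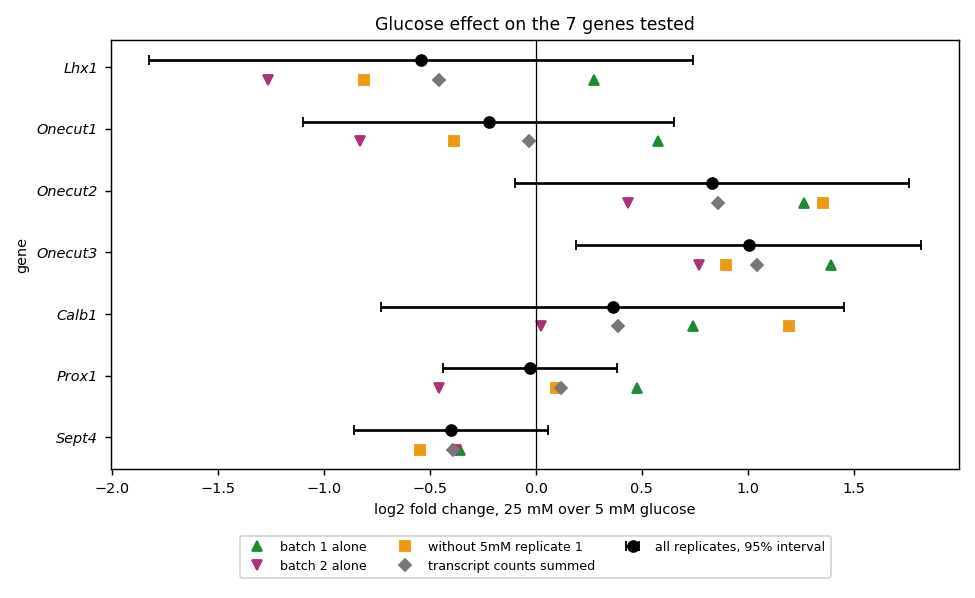
Log2 fold change of each tested gene, 25 mM over 5 mM glucose, with its 95% interval from the edgeR fit (black) and, under it, the values in batch 1 alone, in batch 2 alone, without replicate 1 at 5 mM and from summed transcript counts. The interval of Onecut3, 0.19 to 1.82, is the only one that leaves out 0, and its FDR was 0.117.

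Levels were compared between genes only per exon length, as FPKM (CPM divided by the summed exon length in kilobases, mean ± SD, n = 3). Prox1 stood at 18.3 ± 2.65 FPKM at 5 mM and 18.0 ± 2.33 FPKM at 25 mM, above Sept4 at 11.5 ± 2.32 and 8.71 ± 0.660 FPKM. Calb1 followed at 3.04 ± 2.31 and 3.91 ± 0.799 FPKM, then Onecut2 at 0.592 ± 0.322 and 1.05 ± 0.291 FPKM and Onecut3 at 0.252 ± 0.0323 and 0.507 ± 0.186 FPKM. Lhx1, at 0.207 ± 0.0776 and 0.141 ± 0.0972 FPKM, and Onecut1, at 0.200 ± 0.0448 and 0.172 ± 0.0586 FPKM, did not differ beyond their spread. Gja10 was lowest, at 0.0698 ± 0.0387 and 0.122 ± 0.0253 FPKM. When each transcript was instead divided by its own length, Sept4, with its many short transcripts, ranked 1 and Prox1 ranked 2.

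Transcript counts were read to see which isoforms carried these values. Sept4 was spread over 18 annotated transcripts, with Sept4-205 holding 28.1% of its counts, the retained-intron transcript Sept4-212 holding 23.6% and Sept4-202 holding 14.6%. Transcripts annotated as retained introns took 41.9, 36.8 and 30.9% of the Sept4 counts at 5 mM and 47.8, 42.4 and 40.2% at 25 mM. The group means, 36.5 ± 5.50% and 43.5 ± 3.91% (SD, n = 3), overlapped in their replicates. For Prox1, the 7913-base Prox1-202 held 97.8, 80.0 and 84.6% of the counts at 5 mM and 97.0, 97.7 and 88.8% at 25 mM. The 3285-base Prox1-201 held most of the rest, with 17.8 and 13.6% in replicates 2 and 3 at 5 mM and 10.2% in replicate 3 at 25 mM. Calb1-201 held 97.9% of the Calb1 counts, and Onecut2 and Onecut3 have 1 annotated transcript each.

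**Figure D3:**
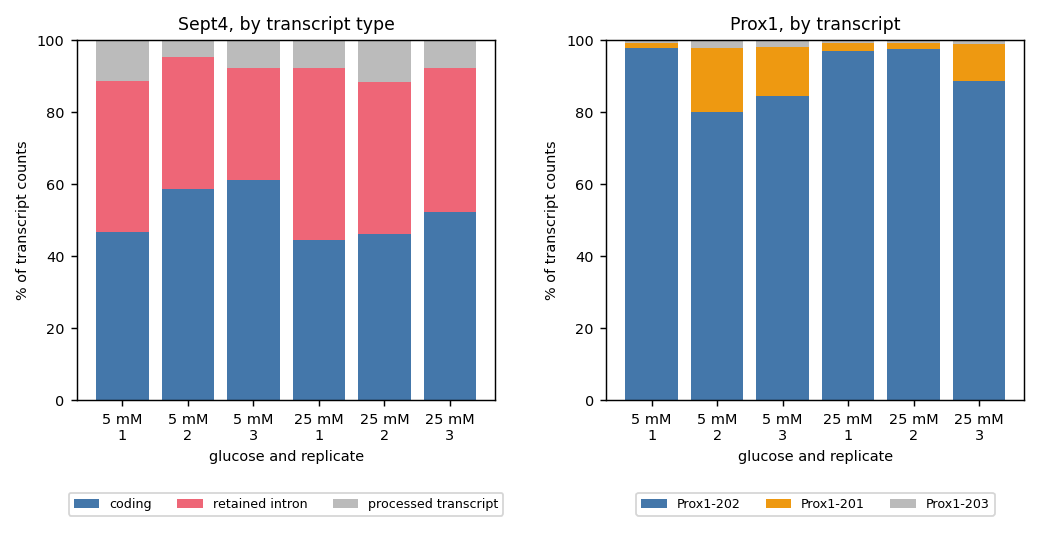
Share of transcript counts (%) in each biological replicate, for Sept4 by transcript type and for Prox1 by transcript. Retained-intron transcripts make up 30.9 to 47.8% of Sept4, and Prox1-201 is visible mainly in 5 mM replicates 2 and 3 and 25 mM replicate 3.

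The gene table and the transcript table differed for some of the genes. The gene value divided by the sum of the transcripts ranged over the 12 libraries from 0.843 to 3.185 for Lhx1, from 0.853 to 2.158 for Onecut1 and from 0.871 to 1.54 for Calb1. It stayed between 0.979 and 1.018 for Onecut2, between 0.979 and 1.016 for Onecut3, between 0.884 and 1.179 for Prox1, between 0.874 and 1.09 for Sept4 and between 0.89 and 1.043 for Gja10. In the Lhx1 library with the largest ratio, technical replicate 2 of replicate 2 at 5 mM, the gene value was 41.4 counts and the transcripts summed to 13.0 counts. Summed transcripts gave Lhx1 33, 23 and 43 counts at 5 mM and 11, 23 and 26 counts at 25 mM. The same fit on those sums gave Lhx1 a log2 fold change of −0.46 (FDR 0.486, edgeR) and Prox1 0.12, and called none of the genes.

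**Figure D4:**
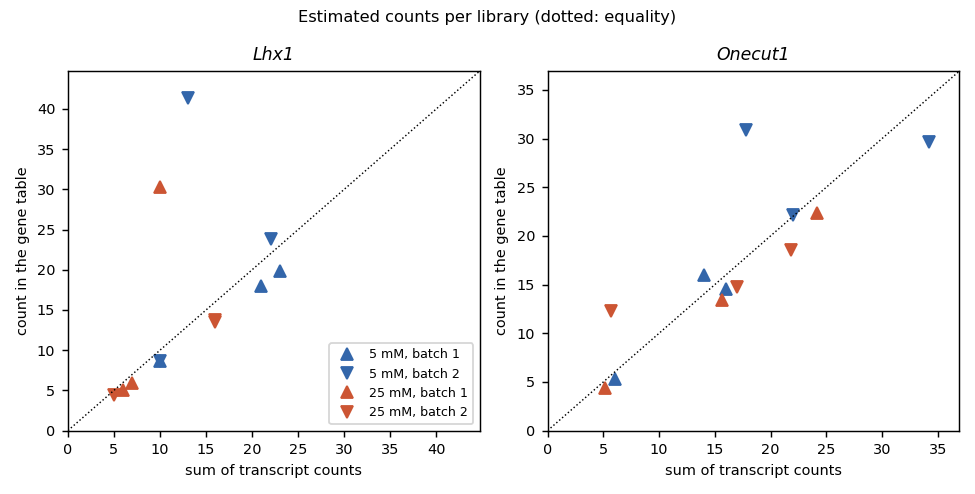
Deposited gene count against the sum of the transcript counts for Lhx1 and Onecut1 in the 12 libraries (color for glucose, triangle up for batch 1 and down for batch 2), with a dotted line of equality. The 2 Lhx1 libraries farthest from the line have gene values 3.185 and 3.03 times the transcript sum.

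Replicate 1 at 5 mM stood apart from the other 5 mM replicates in Calb1 and Onecut2, and several retinal cell markers moved with it. Its summed rod markers were 4064 CPM beside 7059 and 6380 CPM, its summed vascular markers 1114 beside 1930 and 2026 CPM, and its summed ganglion cell markers 360 beside 209 and 230 CPM. Their part in the Calb1 and Onecut2 values was not tested. Without this replicate, 3 of the 8 genes were called, in a fit that called 11.7% of all genes higher and 14.9% lower. The log2 fold change was then 1.36 for Onecut2 (SE 0.31, FDR 0.0220, edgeR) and 1.19 for Calb1 (SE 0.25, FDR 0.0178, edgeR). For Sept4 it was −0.55 (SE 0.17, FDR 0.0442, edgeR). The replicate was singled out by its high Calb1 and Onecut2 values at 5 mM, so leaving it out had to raise both fold changes.

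The batches gave different fold changes for several of the genes. Calb1 read 28.1 and 26.0 CPM in the 2 technical replicates of replicate 1 at 5 mM, 5.50 and 9.71 in replicate 2 and 7.29 and 10.8 in replicate 3. At 25 mM it read 24.4 and 15.3, 28.6 and 19.8, and 17.0 and 12.7 CPM, so the batch 1 library was the higher in each. Onecut2 was higher in batch 2 in all 3 replicates at 5 mM and lower in all 3 at 25 mM. Prox1 at 5 mM read 133, 103 and 98.7 CPM in batch 1 and 236, 197 and 172 CPM in batch 2, while at 25 mM the batches read 179, 149 and 147 CPM and 173, 151 and 120 CPM.

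Within batch 1 alone the log2 fold change was 1.27 for Onecut2, 0.74 for Calb1 and 0.48 for Prox1, and within batch 2 alone 0.43, 0.02 and −0.46. The other values in batch 1 and batch 2 were 0.27 and −1.27 for Lhx1, 0.58 and −0.83 for Onecut1, 1.39 and 0.77 for Onecut3 and −0.36 and −0.38 for Sept4. The sign thus turned between the batches for Lhx1, Onecut1 and Prox1. The batch-by-glucose term, batch 2 minus batch 1, had an unadjusted p under 0.05 for Onecut2, Calb1 and Prox1, beside 16.3% of all genes, and an FDR under 0.05 for none, beside 0% of all genes. Its value was −0.96 for Prox1 (FDR 0.173, edgeR), −0.99 for Onecut2 (FDR 0.213) and −0.96 for Calb1 (FDR 0.233).

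The genes with the most similar profile were sought by the root mean square difference of centred log2 CPM over the 6 replicates. For Lhx1 they were ENSMUSG00000121122 at 0.102, Arc at 0.156 and Ackr2 at 0.159. For Onecut1 they were Gm13387 at 0.117, Fgf23 at 0.132 and AC125110.1 at 0.140, and for Calb1 Fbxo5 at 0.126, Vmn2r87 at 0.145 and Gm49378 at 0.147. Among the members themselves the nearest pair was Onecut2 and Calb1, at 0.274. The genes named for Lhx1, Onecut1 and Calb1 are the closest of 21061 over only 6 replicates. No background distance was computed, so closeness alone does not show shared regulation.

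Other factors that specify horizontal cells were measured by a list of 9 genes, of which 7 were tested, 5 with a positive and 2 with a negative log2 fold change and a median of 0.26, and none was called. Foxn4 and Ptf1a, which commit precursors to the horizontal and amacrine fates, were too low to test. Rorb, a nuclear receptor upstream of Ptf1a, gave 97.1, 66.0 and 69.1 CPM at 5 mM and 168, 151 and 120 CPM at 25 mM. Its groups did not overlap, beside 16.0% of all genes without overlap and higher at 25 mM. The log2 fold change of Rorb was 0.92 (SE 0.21, FDR 0.0609, edgeR). The paper on these data links Rorb to rod development as well, and which cells gave the Rorb values was not tested. In the same list the log2 fold change was 1.00 for Neurod4 (FDR 0.154), −0.79 for Sall3 (FDR 0.172) and −0.29 for Pax6.

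Genes for transmission and feedback by horizontal cells numbered 16, 8 with a positive and 8 with a negative log2 fold change and a median of 0.01, and none was called. The GABA-synthesising enzyme Gad1 gave 142, 140 and 135 CPM at 5 mM and 84.8, 79.6 and 55.3 CPM at 25 mM. Its groups did not overlap, beside 15.8% of all genes without overlap and lower at 25 mM. The log2 fold change of Gad1 was −0.92 (SE 0.19, FDR 0.0522, edgeR). Gad2, the partner of Gad1, was at −0.96 (SE 0.21, FDR 0.0562) and Slc32a1, the vesicular GABA transporter, at −1.61 (SE 0.41, FDR 0.0697). Amacrine cells use these 3 genes as well. The kainate receptor gene Grik1, also a bipolar cell gene, was at 1.52 (SE 0.56, FDR 0.129).

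Of 19 connexin genes other than Gja10, 9 were tested, 5 positive and 4 negative with a median of 0.56, and none was called. The largest changes by log2 fold change were −2.28 for the endothelial connexin Gja4 (FDR 0.0824, edgeR), 1.98 for Gja6 (FDR 0.0526), −1.86 for the glial connexin Gja1 (FDR 0.0696) and 1.25 for Gjc3 (FDR 0.0995). Of 9 septins tested beside Sept4, 8 were negative, with a median of −0.78 and 5 without overlap, all lower at 25 mM (beside 15.8% of all genes), and none was called. Sept9 was at −1.61 (FDR 0.0732, edgeR) and Sept1 at −1.07 (FDR 0.147). Among 14 EF-hand calcium-binding genes, the family of calbindin, 9 were negative with a median of −0.24, led by Necab2 at −1.25 (FDR 0.0950) and Scgn at 1.03 (FDR 0.160), and none was called. Of 12 LIM-homeobox and Prospero relatives tested, 7 were negative with a median of −0.38, led by Lhx6 at −1.17 (FDR 0.0709) and Ldb2 at −0.91 (FDR 0.0951), and none was called. The 4 neurofilament genes, strong in horizontal and ganglion cell axons, had a median of 0.15 with Ina at −0.54 and Nefh at 0.27.

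Markers of the other retinal cells were read beside these. All 16 rod genes had a positive log2 fold change, with a median of 0.89, and 6 rose, beside 1.47% of all genes: Pde6a, Pde6b, Cnga1, Nrl, Nr2e3 and Prph2, with Cnga1 at 2.12 (SE 0.29, FDR 0.0261, edgeR). Of 12 cone genes, 7 had a positive and 5 a negative log2 fold change, from −1.01 to 1.75 with a median of 0.37. Opn1mw rose, with 1.75 (SE 0.31, FDR 0.0420), and no other cone gene was called. None of these rod and cone genes was called in batch 2 alone, nor when replicate 2 or 3 at 5 mM or replicate 1 or 2 at 25 mM was left out. Each of those fits called 0 of all genes tested, so the loss of calls was not particular to rods and cones. No gene of the remaining lists was called, and the median was 0.28 for 12 bipolar cell genes, −0.06 for 12 amacrine cell genes, 0.17 for 11 ganglion cell genes, −0.14 for 12 Müller glia genes, −1.82 for 10 vascular genes, −1.10 for 10 microglia genes and −0.78 for 5 pigment epithelium genes. In each list the leading genes by size were Grik1 at 1.52 and Cabp5 at 0.99, Chat at 1.94 and Slc32a1, Rbpms at −1.68 and Slc17a6 at 1.26, Vim at −1.51 and Apoe at −1.32, Tie1 at −2.67 and Pdgfrb at −2.46, Tmem119 at −1.54 and C1qc at −1.26, and Tyrp1 at −1.80 and Ttr at −0.83. Summed rod markers ranged from 4064 to 7059 CPM at 5 mM and from 8486 to 11295 CPM at 25 mM. The 8 horizontal cell genes summed to 203 to 257 CPM at 5 mM and 194 to 250 CPM at 25 mM. Prox1, which other retinal cells also make, took 66.3 to 71.4% of that sum, so the sum mostly follows Prox1. Whether the shift in the markers of other retinal cells bears on the horizontal cell genes was not tested.

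**Figure D5:**
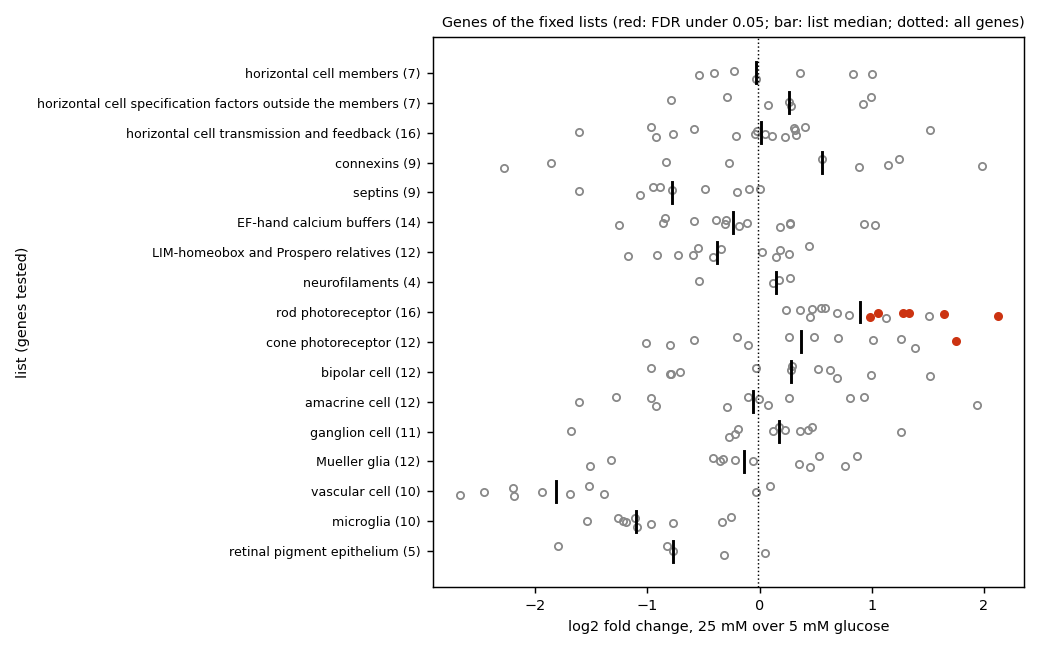
Log2 fold change, 25 mM over 5 mM glucose, of each tested gene in the 8 horizontal cell genes and 16 other lists, with the list median as a bar and the median of all genes as a dotted line. Filled points mark FDR under 0.05 and occur only in the rod list (6 genes) and the cone list (Opn1mw).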

How the data were processed

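Per the labels, total RNA of cultured mouse retina was sequenced with a low-input stranded kit, and the submitters' processing notes name the build GRCm38. The aligner, counting tool and annotation are not given in the sources used here. The values are estimated counts per gene and per transcript, deposited by the authors without normalization. All non-zero gene values are fractional, and over 10559 genes with several transcripts the transcript sum divided by the gene value had 5th and 95th percentiles of 0.801 and 1.17, so low genes can differ between the tables. Symbols were matched to 48766 of the 53707 gene identifiers, and positions come from a GENCODE annotation of GRCm38.

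Technical replicates were summed and rounded to whole counts. Genes passing filterByExpr were fitted with edgeR 4.0.16 in R 4.3.3, using TMM factors and the quasi-likelihood method of its version 3 (glmQLFit, glmQLFTest), with Benjamini-Hochberg adjustment over 21061 genes and an FDR of 0.05. CPM uses TMM-scaled library sizes, and FPKM uses summed exon length. Alternatives used DESeq2 1.42.0 and limma 3.58.1, other scalings and filters, single batches, transcript sums and left-out replicates. Single libraries held 14815285 to 36692484 counts. The labels call the replicates biological and technical but do not say what separates the biological replicates, so p-values measure the spread between these samples. Named genes were the 8 members, each called gene of a list, otherwise the 2 genes with the largest absolute log2 fold change (4 for the specification, transmission and connexin lists), and the 3 genes most like Lhx1, Onecut1 and Calb1. Members and lists were chosen with earlier results of these data known. Sept2 matched 2 identifiers and was not analysed.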

Additional observations from a re-analysis of the deposited data

Results flagged for a closer look

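A single Lhx1 library stood far from the other 5 of its group in each condition. At 5 mM it was technical replicate 2 of replicate 2, at 2.12 CPM, and at 25 mM technical replicate 1 of replicate 3, at 1.45 CPM. These are the 2 libraries in which the gene value was 3.185 and 3.03 times the transcript sum. Among the 16 groups of 6 libraries examined, 2 had such a library, where chance gives about 0.8. Onecut2 was flagged because all 3 replicates were higher in batch 2 at 5 mM and all 3 were lower in batch 2 at 25 mM. Its batch-by-glucose term was −0.99 and was not called (FDR 0.213, edgeR), where 0% of all genes were called. The unadjusted p was under 0.05, as for 16.3% of all genes. The log2 fold change of Onecut2 was positive in both, 1.27 in batch 1 alone and 0.43 in batch 2 alone. The causes were not tested.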

How the results depend on the processing

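The count of members called was 0 under each alternative that kept all replicates, and ranged from 0 to 3 when 1 replicate was left out. Members below 0 numbered 1 with a filter of 1 CPM, where 5 were tested, 1 in batch 1 alone, and 2 to 4 with a replicate left out. The count of genes called, 417, became 3489 with DESeq2, 1979 without a filter, 2918 with 12 libraries and a batch term, 3279 in batch 1 alone, 0 in batch 2 alone, 2554 with offsets for GC content and length, 2994 with these offsets and the replicate block, and 0 to 5845 with a replicate left out. Genes with FDR under 0.01 and a fold change over 2 numbered 1387, 275, 109 and 367 with DESeq2, no filter, 12 libraries and batch 1, 126 with the offsets, 410 with offsets and block, and 0 to 108 with a replicate left out. The share of calls that were higher was 74.1%, and 50.2% with the offsets, 41.2% with offsets and block, 40.9% with the block, 42.4% with DESeq2, 38.3% without a filter, 49.6% with 12 libraries and 41.4% in batch 1. Leaving out 5 mM replicate 1 gave 5845 genes and leaving out 25 mM replicate 3 gave 494, while each of the other 4 gave 0. Prox1, at −0.028, turned to 0.037 with library totals, 0.022 with the 1 CPM filter, 0.030 with 12 libraries, 0.48 in batch 1 and 0.12 with transcript sums, and ranged from −0.12 to 0.094 with a replicate left out. Lhx1 turned to 0.27 and Onecut1 to 0.58 in batch 1, Onecut1 ranged from −0.39 to 0.034 with a replicate left out, and Calb1 turned to −0.016 with the offsets. With the offsets Sept4 moved to −0.083, and to −0.081 with the block as well, Onecut3 to 1.57 and Lhx1 to −0.26. With a replicate left out Lhx1 ranged from −1.22 to −0.13, Onecut2 from 0.54 to 1.36 and Calb1 from 0.031 to 1.19. The causes were not tested. The replicate block gave 990 genes called, 0 members called and a member median of −0.027. The deviations of same-number replicates had correlations of −0.0138, −0.449 and 0.285, and 1 of 3 correlated best with its own number. The labels do not say whether the numbers pair the samples, and 3 correlations are too few to decide it. The block changed no call among the members. At the depth of Lhx1, Onecut1 and Gja10, single replicates held 3 to 50 counts, which limits what could be detected.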
